A study of Mus musculus with 4 samples.

Results

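The clustered protocadherin locus of mouse chromosome 18 was examined for 5-hydroxymethylcytosine (5hmC), from 37.08 to 37.99 Mb on genome build mm9, a stretch of 910 kb. Positions are given in Mb of that build, and a window or tile starts at the base after the first position. Its bounds are positions and use no 5hmC value. It was cut into 18 windows of 50 kb, of 49565 such windows kept in the genome, and into tiles of 5 kb. The 10 kb left over at the distal end were counted with the tiles and the whole locus. The stretch holds the alpha, then the beta, then the gamma protocadherin genes. RefSeq lists 58 of them by name on GRCm38.p6, with 14 alpha (Pcdha1 to Pcdha12, Pcdhac1 and Pcdhac2), 22 beta (Pcdhb1 to Pcdhb22) and 22 gamma genes (Pcdhga1 to Pcdhgc5). In that assembly Slc25a2 and Taf7 lie between the beta and gamma genes, Zmat2 and Hars2 lie before the alpha genes, and Diaph1 and Hdac3 follow the gamma genes. The 58 genes span 911.589 kb there, slightly more than the 910 kb examined, so that the very end of the gamma genes may fall in the distal flank.

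Clustered protocadherins are cell surface adhesion proteins that give neurons an individual identity. Each alpha and gamma gene has its own promoter and variable first exon, which is spliced to constant exons at the end of its family, while each beta gene is a single exon. Single neurons express a small, largely random set of them, and methylation of the variable exons and their promoters, together with CTCF and cohesin binding, is known to take part in that choice. 5hmC is the oxidised form of 5-methylcytosine that TET enzymes make, and is common in embryonic stem cells and in mature neurons. Gene positions on mm9 were not used here, so the values below are given by position, and a window is not assigned to a gene.

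DNA came from mouse 46C embryonic stem cells (ESC; 129/Ola strain, grown with serum and leukemia inhibitory factor) and from neural progenitor cells (NPC) derived from them by monolayer differentiation in N2B27 medium and used at day 9 as rosette-like, Sox1-GFP-positive cells. Neither cell type received a short interfering or hairpin RNA. DNA of both, about 4 µg each with its own barcode, was pooled, denatured and precipitated in a single tube with 4 µg of a 5hmC antibody after 10% had been removed as input. This gave 4 libraries, a 5hmC and an input library per cell type, with 1 library per group. No gene expression was measured, so that the cell types could not be checked by their markers.

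Within the locus, the ESC 5hmC library had 2956 distinct reads (at most 1 per position and strand), the ESC input 1729, the NPC 5hmC library 441 and the NPC input 2172. Their genome-wide numbers were 7123491, 5059243, 1742680 and 6588254. The level of 5hmC is given as 5hmC reads per input read, or as that level divided by the genome-wide level of the same cell type, which is then 1. The NPC/ESC ratio is the ratio of both levels. Values in parentheses are 95% intervals of counting error. They do not hold the spread between cultures or precipitations, which is unknown with 1 library per group, and PCR copies are not independent molecules. No test between cell types was therefore possible.

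The locus as a whole carried more 5hmC than the genome average in ESC and less in NPC. ESC had 1.71 5hmC reads per input read (1.61 to 1.82), a level 1.21 times that of the genome (1.14 to 1.29). NPC had 0.203 (0.183 to 0.225), a level 0.768 times that of the genome (0.691 to 0.851). The NPC/ESC ratio of the locus was 0.119 (0.106 to 0.134), against 0.188 genome-wide (0.187 to 0.188) and 0.199 on chromosome 18 (0.197 to 0.201). The locus thus lay 0.632 times the genome-wide ratio (0.562 to 0.712). The share of input reads in the locus was 0.965 times as large in NPC as in ESC (0.906 to 1.03).

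All stretches of 910 kb in the genome were laid out in the same grid for comparison, 2776 in number. The ESC level of the locus was above that of 2123 of them (76.5%), and its NPC level was above that of 612 (22.0%). Its NPC/ESC ratio was above that of 107 (3.85%), and the median stretch had a ratio of 0.243. Across the genome the ratio was lower where ESC were richer in 5hmC, so the NPC level was also set against stretches of like ESC level. Of 272 stretches whose ESC level was within 10% of that of the locus, 1 had a lower NPC level, and their median was 1.06 times the genome-wide NPC level (5th to 95th percentile 0.843 to 1.34).

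The flanks of 500 kb on either side differed from each other. The proximal flank, before the alpha genes, was near the genome average in ESC, at 1.03 times (0.949 to 1.11), whereas NPC were below theirs at 0.848 times (0.748 to 0.959). The distal flank, which may hold the very end of the gamma genes, was rich in both cell types. ESC reached 1.81 there (1.70 to 1.92), and NPC reached 1.43 (1.31 to 1.56). Divided by the proximal flank, the ESC level of the locus was 1.18 (1.08 to 1.30), whereas its NPC level came to 0.905 (0.772 to 1.06). Divided by the distal flank, these values were 0.672 for ESC (0.619 to 0.731) and 0.536 for NPC (0.469 to 0.612). The NPC/ESC ratio of the locus was below that of either flank, at 0.764 times the proximal one (0.634 to 0.921) and 0.796 times the distal one (0.681 to 0.932). The flanks themselves had ratios of 0.155 (0.134 to 0.180) and 0.149 (0.134 to 0.165), both below the genome-wide ratio.

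**Figure D1:**
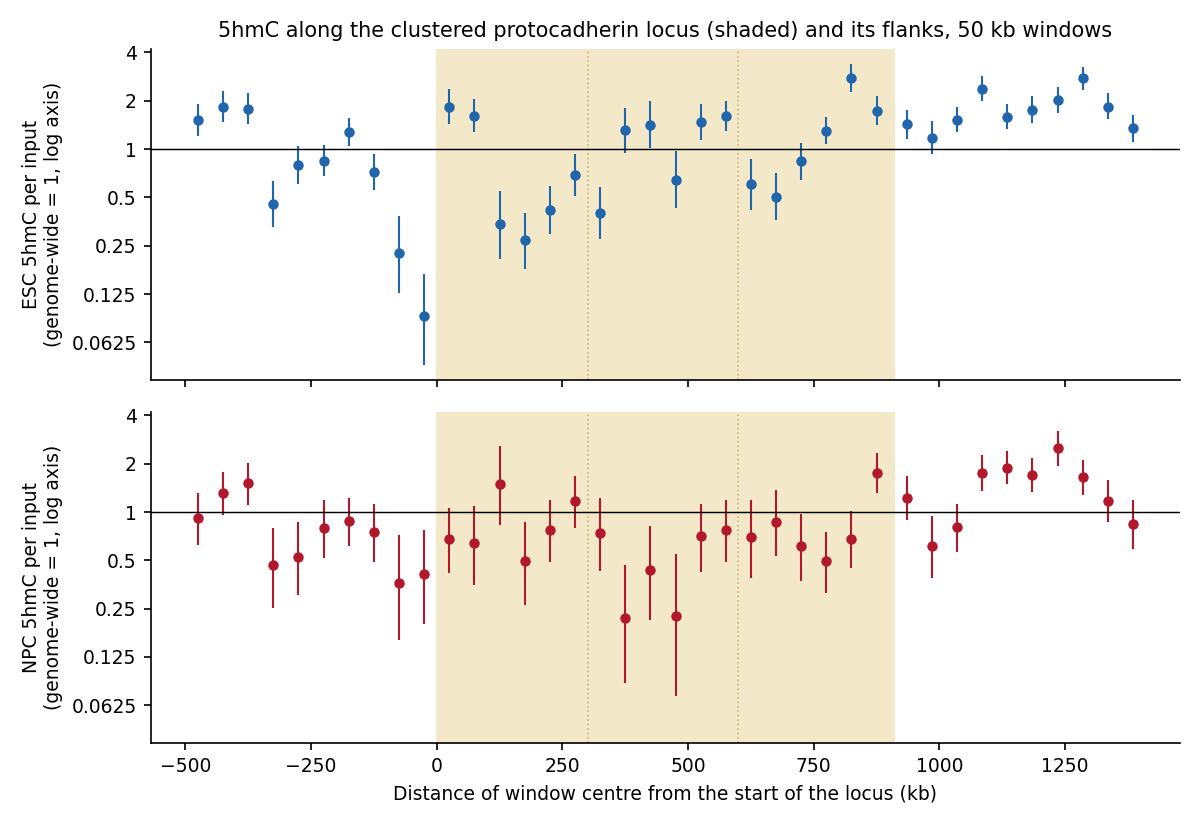
5hmC per input in 50 kb windows of the locus (shaded) and of 500 kb on each side, as a multiple of the genome-wide level (log axis), for ESC (upper panel) and NPC (lower panel), against the distance of the window's centre from the start of the locus in kb. Points are windows, bars are 95% counting intervals and dotted lines part the 3 blocks. ESC windows of the locus run from 0.271 to 2.76, while 15 of 18 NPC windows (83.3%) lie below 1, against 63.8% of all windows.

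The locus was parted by position into 3 blocks, of 300 kb (37.08 to 37.38 Mb), 300 kb (37.38 to 37.68 Mb) and 310 kb (37.68 to 37.99 Mb), which follow the alpha to gamma order without being bounded by the gene families. With the reads of both strands summed, though not with minus-strand reads alone, the ESC level increased from block to block. It was 0.905 times the genome-wide level in the first block (0.807 to 1.02), 1.19 times in the middle block (1.06 to 1.34) and 1.46 times in the last (1.33 to 1.60). The NPC level did not follow. It was 0.822 in the first block (0.678 to 0.989), 0.530 in the middle block (0.420 to 0.662) and 0.900 in the last (0.771 to 1.05).

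The middle block had the lowest NPC/ESC ratio, 0.0838 (0.0646 to 0.108). The ratio was 0.170 in the first block (0.136 to 0.213) and 0.116 in the last (0.0969 to 0.138). The first block's ratio was 2.04 times that of the middle block (1.46 to 2.83), and the last block's was 1.38 times (1.02 to 1.87). The genome-wide ratio lay within the first block's interval. From minus-strand reads alone the ESC level of the middle block was 0.962 (0.810 to 1.14), no longer above the genome-wide level, while its ratio was 0.0812. The order of the blocks depended on the strand too. The middle block had 1.31 times the ESC level of the first with both strands (1.11 to 1.55), 1.87 times with plus-strand reads (1.49 to 2.36) and 0.888 times with minus-strand reads (0.698 to 1.13). In read numbers, the middle block had 785 ESC 5hmC reads over 469 input reads and 90 NPC 5hmC reads over 642. Its NPC level was below that of the ESC-poorest decile of genome windows, which stood at 0.656 times the genome-wide NPC level (0.651 to 0.661), with the upper bound of the block's interval (0.662) just reaching it.

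Along the locus, rich and poor stretches alternated in ESC. The lowest ESC window had 0.271 times the genome-wide level, the median 1.07 and the highest 2.76, a 10.2-fold span. Of the 18 windows, 8 (44.4%) had an interval above the genome-wide level, against 22.0% of all windows, 8 an interval below it, against 59.3%, and 2 an interval that held it. In NPC 1 had an interval above (5.56%, against 12.3%) and 6 an interval below (33.3%, against 18.2%). The rich stretches were separated from each other by poor ones, and the profile is told below in order from the alpha end.

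The locus opened with a rich stretch. The window from 37.08 to 37.13 Mb held 235 ESC 5hmC reads over 91 input reads, 1.83 times the genome-wide level (1.43 to 2.36), and that from 37.13 to 37.18 Mb reached 1.62 (1.28 to 2.06). NPC were at 0.679 (0.416 to 1.06) and 0.637 (0.350 to 1.09) in these windows, from 23 and 16 5hmC reads. The edge was steep in ESC. The last 50 kb before the locus, from 37.03 to 37.08 Mb, held 12 ESC 5hmC reads over 94 input reads, or 0.0907 times the genome-wide level (0.0452 to 0.166), and a percentile of 0.327 among the genome's windows. The first window of the locus was 20.2 times as rich as this neighbour by the ESC reads (10.3 to 42.2), but by the NPC reads only 1.65 times (0.730 to 3.93). This edge was picked out after its values were seen.

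A poor stretch of 250 kb followed, from 37.18 to 37.43 Mb. Its 5 windows had ESC levels of 0.342, 0.271, 0.420, 0.688 and 0.401 times the genome-wide level, each with an interval below 1. NPC levels there were 1.5 (0.831 to 2.59), 0.495 (0.262 to 0.867), 0.774 (0.487 to 1.19), 1.16 (0.795 to 1.67) and 0.741 (0.427 to 1.22), so that 1 of the 5 intervals lay below 1 and none above. The NPC/ESC ratios ran from 0.318 to 0.821, above those of 12 of the other 13 windows; the exception, from 37.73 to 37.78 Mb, had 0.324. The window from 37.18 to 37.23 Mb had the highest, 0.821 (0.381 to 1.75), and was the only window of the locus whose ratio interval reached 1; the other 17 (94.4%) lay below, against 77.6% of all windows. It held 27 ESC and 19 NPC 5hmC reads, and its inputs were the most unequal in that direction, with NPC input at 0.658 times the balance of the genome. With the summed inputs under both cell types its ratio was 0.540 (0.284 to 1.01).

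The next windows, from 37.43 to 37.58 Mb, had the lowest NPC values of the locus. The window from 37.43 to 37.48 Mb held 114 ESC 5hmC reads over 62 input reads, 1.31 times the genome-wide level (0.95 to 1.81). In NPC it held 7 5hmC reads over 121 input reads, 0.219 times (0.0861 to 0.465). Its NPC/ESC ratio was 0.0315 (0.0118 to 0.0733), below all but 0.0262% of the genome's windows. This was the lowest ratio of the 18 windows, and neither its interval nor its percentile allows for that. The inputs of this window were the most unequal in the other direction, with NPC input at 1.5 times the balance of the genome. With the summed inputs its ratio was 0.0472 (0.0185 to 0.10), for which no percentile is given. The window from 37.48 to 37.53 Mb had an ESC level of 1.42 (1.02 to 1.99) beside an NPC level of 0.438 (0.211 to 0.819). The window from 37.53 to 37.58 Mb was poor in both, with ESC at 0.644 (0.429 to 0.967) and NPC, from 5 reads, at 0.225 (0.0712 to 0.546). These windows had thin ESC inputs of 62, 56 and 54 reads.

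ESC were rich again from 37.58 to 37.68 Mb, at 1.48 (1.14 to 1.92) and 1.60 (1.29 to 2.0), with NPC at 0.705 (0.426 to 1.12) and 0.774 (0.487 to 1.19). Then came a poor stretch of 150 kb, from 37.68 to 37.83 Mb. ESC levels there were 0.604 (0.417 to 0.873), 0.506 (0.359 to 0.709) and 0.838 (0.646 to 1.09), and NPC levels 0.699, 0.872 and 0.616. The NPC/ESC ratios of 0.217, 0.324 and 0.138 each had an interval that overlapped the others.

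The gamma end of the locus, from 37.83 Mb, was the richest in ESC. The window from 37.88 to 37.93 Mb held 497 ESC 5hmC reads over 128 input reads, 2.76 times the genome-wide level (2.27 to 3.38) and a percentile of 98.7. NPC had 30 over 166 there; this was 0.683 times (0.447 to 1.01), with an NPC/ESC ratio of 0.0465 (0.0292 to 0.0730) at a percentile of 0.169. The window before it, from 37.83 to 37.88 Mb, had ESC at 1.30 (1.07 to 1.58), NPC at 0.495 (0.312 to 0.753) and a ratio of 0.0715 (0.0434 to 0.115). The last window, from 37.93 to 37.98 Mb, differed from both. It was lower in ESC (1.73, 1.41 to 2.14) and the only window of the locus with an NPC interval above the genome-wide level (1.76, 1.32 to 2.33), from 75 NPC 5hmC reads. Against the window just before it, NPC rose 2.58-fold (1.57 to 4.30) and ESC fell to 0.627 times (0.469 to 0.839), so that the ratio was 4.11 times as high (2.37 to 7.14). The last 10 kb, to 37.99 Mb, had ESC at 2.41 (1.64 to 3.63) and NPC at 1.64 (0.921 to 2.83).

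By the fold rules, 1 of the 18 windows (5.56%) was 2-fold or more above genome-wide in ESC, against 6.59% of all windows, and 4 (22.2%) were at least 2-fold below it, against 44.4%. In NPC none was at least 2-fold above, against 2.03%, and 5 (27.8%) were at least 2-fold below, against 9.39%. With the windows shifted by 25 kb, 2 of 17 were 2-fold or more above in ESC, against 6.63%, and 6 at least 2-fold below, against 44.5%. In NPC 3 of these 17 were at least 2-fold below, against 9.49%. The NPC/ESC ratio was at least 1.5-fold below the genome-wide one in 9 windows (50%), against 14.3% of all windows. It was at least 1.5-fold above in 6 (33.3%), against 48.0%. In the shifted windows, 7 of 17 were at least 1.5-fold below, against 14.5%, and 3 at least 1.5-fold above, against 48.1%.

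**Figure D2:**
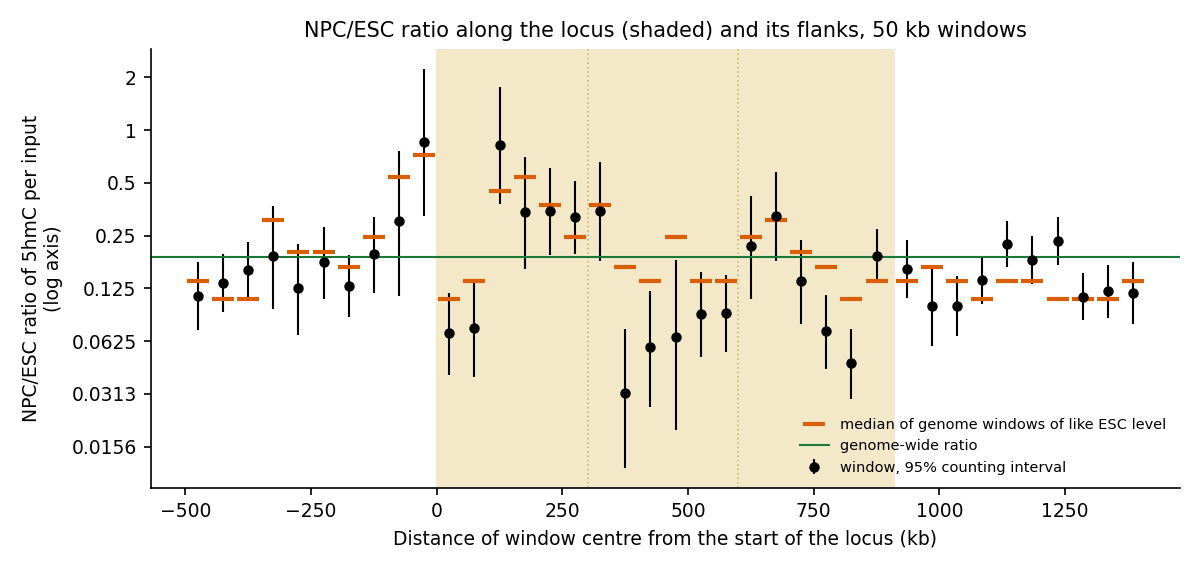
NPC/ESC ratio of 5hmC per input (log axis) in the same 50 kb windows, against the distance from the start of the locus in kb; bars are 95% counting intervals, the line is the genome-wide ratio of 0.188 and the dashes are the median ratio of the genome's windows in the same decile of ESC level. In the locus (shaded) 14 of 18 windows lie below their dash, 6 of them with the whole interval.

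Since a low ratio is common where ESC are rich, each window was also set against the median ratio of the genome's windows in the same decile of ESC level. Of the 18 windows, 14 lay below that median, which parts the windows of the genome evenly by its definition. The whole interval lay below it in 6 windows (33.3%), against 5.78% of the genome's windows, and above it in none, against 8.62%. The 6 were the windows starting at 37.13, 37.43, 37.48, 37.53, 37.83 and 37.88 Mb. With twentieths of the ESC level in place of deciles 5 windows remained wholly below (27.8%, against 5.44%), the window from 37.13 Mb no longer among them. The last of these had a ratio of 0.0465 where the median of its decile was 0.108, and the window from 37.43 Mb had 0.0315 where the median was 0.165. The window from 37.93 Mb lay above its median (0.191 against 0.137) with an interval that held it (0.134 to 0.273). With twentieths the median was 0.132, so that the whole interval of this window lay above it. With the summed inputs its ratio was 0.181 (0.138 to 0.233), wholly above the decile median of 0.137. The share of the genome's windows wholly above with twentieths is not given here. The ratio and the ESC level share their ESC reads, so that counting error in ESC moves a window along both.

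The NPC level did not follow the ESC level within the locus. The 9 windows above the genome-wide level in ESC averaged 1.70 times that level, and the other 9 averaged 0.532. NPC stood at 0.739 (0.640 to 0.851) in the first set and at 0.761 (0.647 to 0.892) in the second. NPC were thus 0.971 times as rich in the ESC-rich as in the ESC-poor windows (0.783 to 1.21). Over all windows of the genome split in the same way, the NPC level was 1.44 times as high where ESC lay above the genome-wide level, at 1.22 against 0.846, which is outside the interval of the locus. The ESC difference was alike, 3.21-fold in the locus (2.81 to 3.66) and 3.36-fold in the genome. Across the 18 windows Pearson's r of the log2 levels was -0.09 and Spearman's rho -0.09. In the 20 flank windows they were 0.82 and 0.90, and over 49560 windows of the genome 0.51 and 0.51. The flank values pool both flanks, which differ in level in both cell types, and no correlation within a single flank is given. Windows are not independent, they share the same libraries, and NPC windows of the locus held 5 to 75 5hmC reads, so the near-zero correlation is given as a description of sparse counts. This split was chosen after the windows had been seen.

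**Figure D3:**
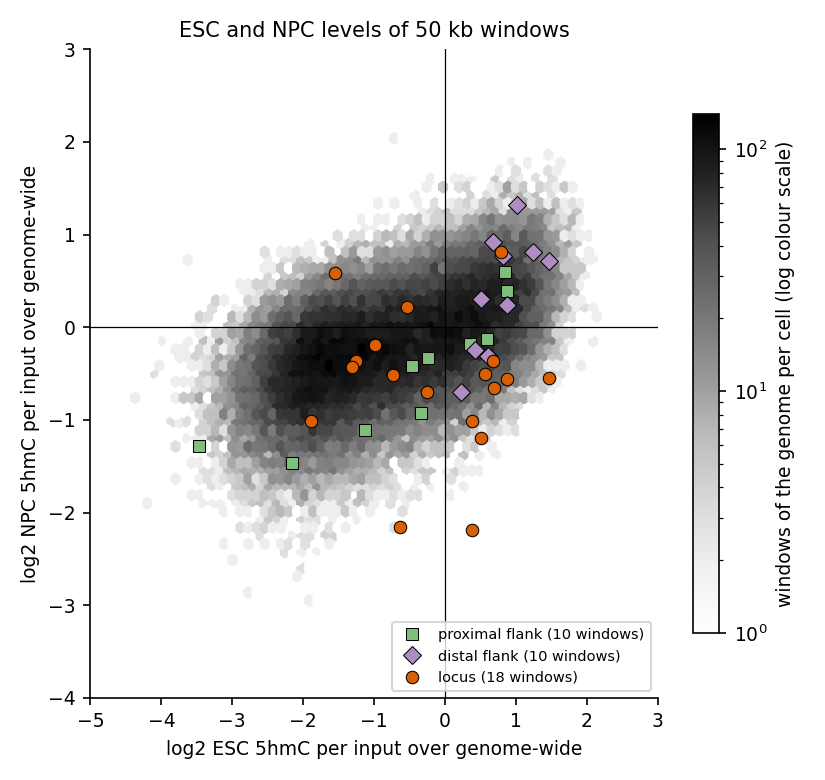
Each window of 50 kb by its log2 ESC level (x axis) and log2 NPC level (y axis), both over the genome-wide level; grey cells count the genome's windows on a log colour scale, and symbols mark the 18 windows of the locus and the 10 of each flank. Flank windows, with both flanks pooled, rise together on both axes (r of 0.82), whereas those of the locus spread along both axes, from 0.219 to 1.76 in NPC, with no joint rise (r of -0.09).

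At 5 kb, 173 tiles had the 5 or more reads in the summed inputs required here. The other 9 had fewer, and none exceeded the upper limit. The median tile of the locus had 22 summed input reads, against 23 in the genome, so that most of the locus was covered like the genome in spite of its many related genes. Medians over all 5 kb tiles of the locus were 6 ESC 5hmC reads and 2 NPC 5hmC reads, so single tiles are imprecise in NPC. No NPC 5hmC read fell in 37 of the 173 kept tiles (21.4%), against 14.9% of kept tiles in the genome.

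**Figure D4:**
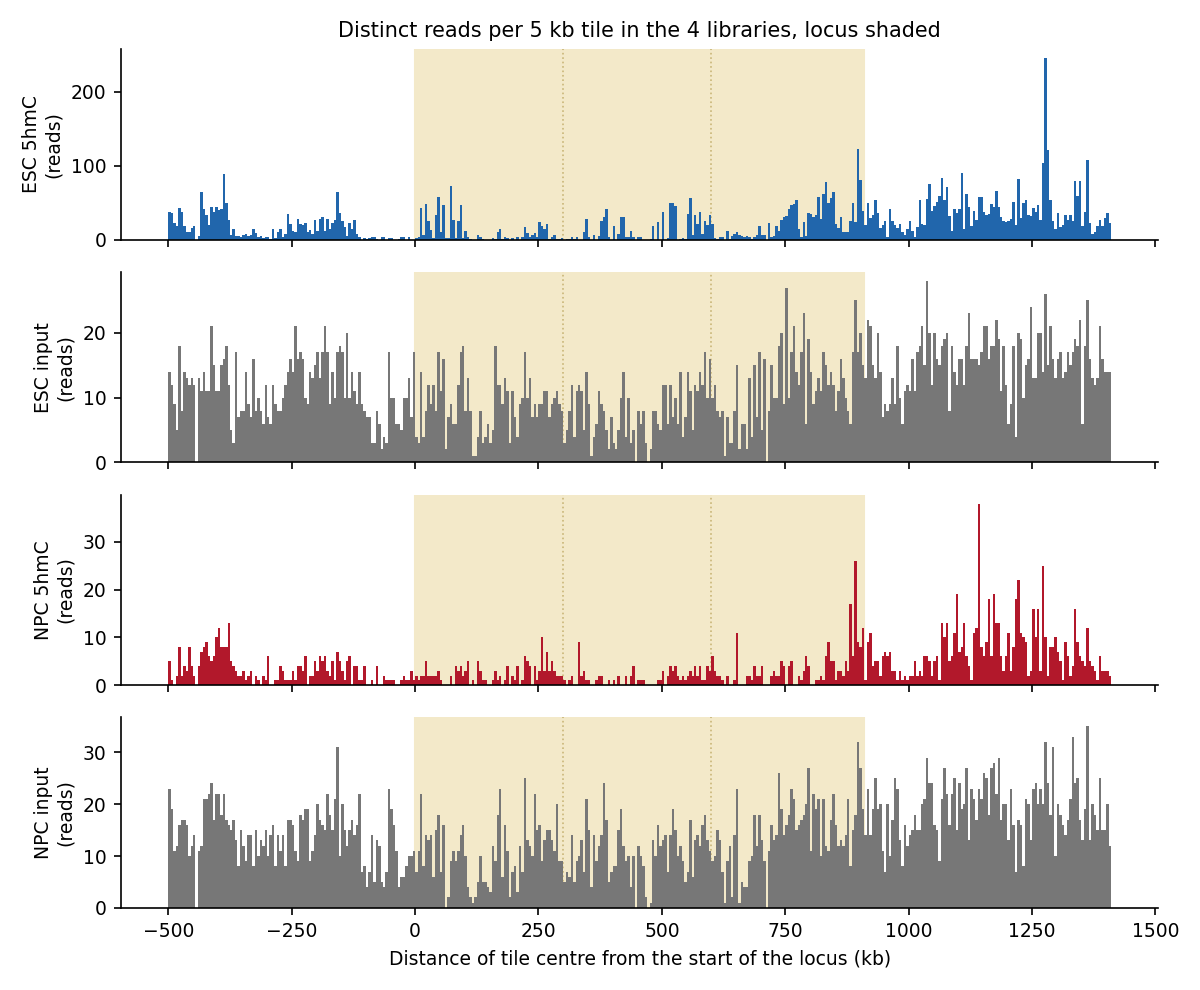
Distinct reads per 5 kb tile in the ESC 5hmC, ESC input, NPC 5hmC and NPC input libraries (linear axes that differ between panels), against the distance from the start of the locus in kb, with the locus shaded. The tallest ESC 5hmC tile of the locus has 122 reads and the tallest NPC 5hmC tile 26, and both lie near its distal end.

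A tile was called enriched at 10 or more 5hmC reads and at least 2-fold over its own input. In ESC 33 tiles (19.1%) were enriched, against 10.6% in the genome. They numbered 7 in the first, 11 in the middle and 15 in the last block. In NPC 4 tiles (2.31%) were enriched, against 5.82% in the genome, with 1 in the first, 0 in the middle and 3 in the last block. The tile enriched in both (0.578%, against 2.18%) lay from 37.96 to 37.965 Mb. The call needs 10 reads, which the shallower NPC library reaches less easily in the locus as in the genome.

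The NPC reads in the tiles picked on ESC give a comparison that the choice did not use. In the 33 ESC-enriched tiles of the locus NPC stood at 0.770 times the genome-wide level (0.622 to 0.946), from 111 5hmC reads over 545 input reads. In the 50527 ESC-enriched tiles of the genome it stood at 1.52 (1.51 to 1.52). In the other 140 kept tiles of the locus NPC stood at 0.767 (0.679 to 0.864), so that the enriched tiles had 1.003 times the NPC level of their neighbours (0.785 to 1.28), against 1.66 times in the genome (1.66 to 1.67). The ESC level of the enriched tiles was alike, 3.07 in the locus (2.74 to 3.45) and 3.09 in the genome.

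Of the 36 tiles enriched in either cell type, 33 (91.7%) were at least 2-fold lower in NPC, against 84.8% in the genome, and none was at least 2-fold higher, against 1.02%. Most were chosen on ESC reads that the ratio also uses, which favours a low ratio. ESC-enriched tiles made up 33 of the 36 in the locus but 50527 of 67885 in the genome, so these shares do not compare tiles chosen alike. Relative to the ratio of the whole genome, 27 (75.0%) were lower by 2-fold or more, against 41.9%, and 3 (8.33%) were higher by as much, against 21.0%. With a pseudocount of 5 in place of 0.5 reads, 9 of 26 tiles (34.6%) were lower by 2-fold or more, against 14.6% in the genome.

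The 5 tiles with the highest ESC level were spread over the locus. The tile from 37.465 to 37.47 Mb had the highest, 5.82 times the genome-wide level (2.30 to 18.9), from 41 5hmC over 5 input reads. The tile from 37.15 to 37.155 Mb reached 5.68 (2.83 to 12.9) and that from 37.975 to 37.98 Mb reached 5.10 (3.06 to 9.03), the latter from 122 reads, the most in the locus. Those from 37.60 to 37.605 Mb and from 37.10 to 37.105 Mb had 4.97 and 4.26. NPC had 0, 2, 9, 3 and 5 5hmC reads in these tiles, over 17, 9, 32, 19 and 14 input reads. The intervals do not allow for their having been picked as the highest of 144 tiles with enough input.

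Adjacent ESC-enriched tiles formed 8 runs of at least 2 tiles. How often such runs occur in the genome was not computed. The runs were picked on high ESC reads, which their NPC/ESC ratios share, and their intervals do not allow for that choice. The longest, of 25 kb from 37.905 to 37.93 Mb, had ESC at 3.16 times the genome-wide level (2.43 to 4.15) and NPC at 1.18 times (0.731 to 1.86). Beside it, 15 kb from 37.885 to 37.90 Mb had ESC at 2.65 (1.79 to 4.01) and NPC at 0.122 (0.0144 to 0.459), from 2 NPC 5hmC reads over 62 input reads, with a ratio of 0.00865 (0.00100 to 0.0364). The 10 kb from 37.46 to 37.47 Mb had 3.93 in ESC (2.16 to 7.74), from 72 reads, and no NPC 5hmC read over 41 input reads. A count of 0 allows up to 3 reads as a 95% upper limit without a lower bound. That is 0.277 times the genome-wide NPC level with the input taken as fixed. The 95% interval of its NPC level has both bounds and includes the counting error of the input, so it is not a like limit. This interval reached up to 0.356, and that of the ratio reached up to 0.0208. Among the 60 tiles with 5 reads in each input and 20 5hmC reads in a cell type, 12 had no NPC 5hmC read and so tied at the lowest ratio. Such a tile can enter this set only through its ESC reads. The share of such tiles in the genome was not computed, so the count describes the locus alone. They numbered 2 of 12 such tiles in the first, 4 of 19 in the middle and 6 of 29 in the last block, so that they were spread over the locus. Both tiles of that run had the lowest upper bounds, 0.0445 and 0.0584. Next came the tiles from 37.885 to 37.890 Mb (0.0704), from 37.850 to 37.855 Mb (0.0869) and from 37.495 to 37.500 Mb (0.0898).

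The tiles with the highest NPC level were mostly at the distal end. The tile from 37.96 to 37.965 Mb held 17 NPC 5hmC reads over 8 input reads, 8.03 times the genome-wide level (3.29 to 21.5), and 2.96 in ESC (1.19 to 8.82). The tile from 37.97 to 37.975 Mb held 26 over 18 in NPC, 5.46 times (2.88 to 10.6), and 24 over 25 in ESC, 0.682 times (0.373 to 1.24). Its NPC/ESC ratio was the highest among those 60 tiles, 1.5 (0.612 to 3.71). Directly next to it, from 37.975 to 37.98 Mb, ESC were at 5.10 and NPC at 1.06 (0.446 to 2.28), with a ratio of 0.0392 (0.0143 to 0.104). The tile from 37.335 to 37.34 Mb had 4.20 in NPC (1.53 to 11.7) from 10 reads, that from 37.41 to 37.415 Mb had 3.40 from 9 reads with no ESC 5hmC read over 12 input reads, and that from 37.915 to 37.92 Mb had 3.09 from 9 reads.

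The DNA was denatured before precipitation, so a 5hmC read may report the strand that was bound, which was not checked here. The ESC 5hmC reads of the locus were unequal between strands, with 54.5% on the plus strand (52.7% to 56.3%), against 50.6% of its ESC input reads (48.2% to 53.0%) and 50% of ESC 5hmC reads in the genome. The sides differed between blocks. The plus strand held 45.5% in the first block (41.7% to 49.3%), 59.5% in the middle block (56.0% to 62.9%) and 56.0% in the last (53.4% to 58.6%). The ESC input of these blocks had 54.4% (50.1% to 58.7%), 49.9% (45.3% to 54.5%) and 48.3% (44.6% to 52.0%). In the first block the input thus leaned to the plus strand, opposite to the 5hmC reads, with an interval above 50%. In NPC 54.4% of the 5hmC reads of the locus were on the plus strand (49.6% to 59.1%), an interval that held 50%.

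Of the 14 windows with 50 or more ESC 5hmC reads, 4 had at least 60% of them on the plus strand (28.6%, against 5.45% of such windows in the genome) and 2 at most 40% (14.3%, against 5.60%). The highest share was 64.1% (58.5% to 69.5%), from 37.83 to 37.88 Mb, where the ESC input had 44.0% (36.3% to 51.9%). The next were 62.3% from 37.43 Mb, 61.1% from 37.63 Mb and 60.2% from 37.88 Mb. The shares of at most 40% were 33.3% from 37.68 Mb (21.4% to 47.1%) and 34.5% from 37.28 Mb (22.2% to 48.6%). In the inputs, 1 of 18 ESC windows (5.56%) had at least 60%, against 2.98%, and 1 at most 40%, against 2.88%. Of 17 NPC input windows, 0 had at least 60%, against 1.82%, and 0 at most 40%, against 1.96%. The ESC 5hmC reads of the flanks had 51.6% (49.2% to 54.1%) and 51.0% (49.4% to 52.5%) on the plus strand. These strand counts were added after the strand alternatives had been seen.

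**Figure D5:**
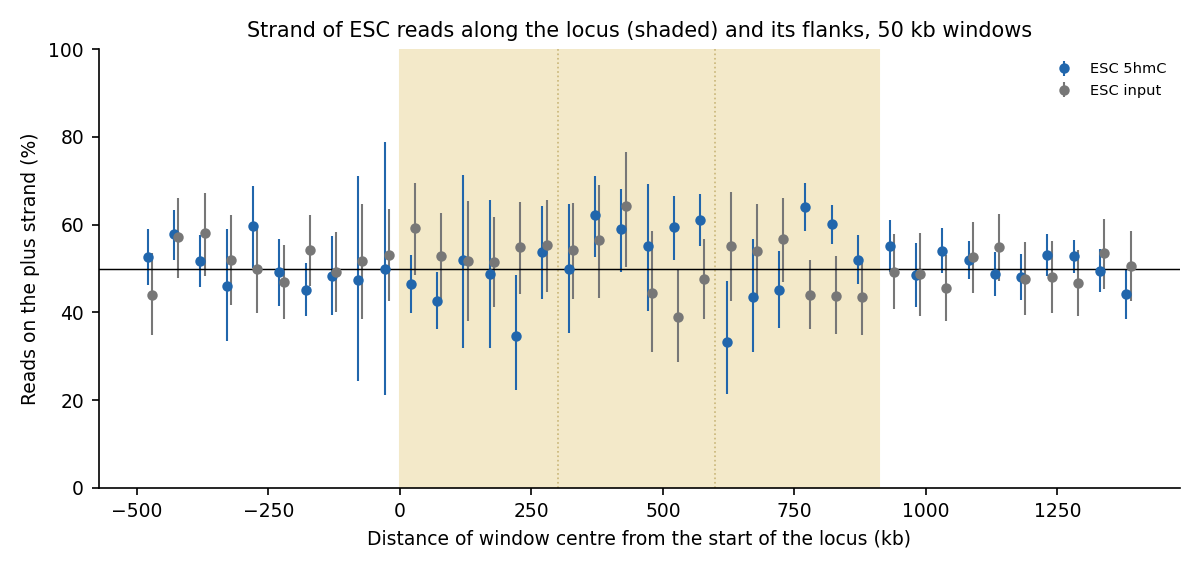
Share of ESC reads on the plus strand (%) in 50 kb windows of the locus (shaded) and its flanks, for the 5hmC and the input library, against the distance from the start of the locus in kb; bars are 95% exact intervals. ESC 5hmC windows of the locus run from 33.3% to 64.1% on the plus strand.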

How the data were processed

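The deposited files list read positions on mm9, and Bowtie 0.12.7 is named as aligner per the submitters' processing notes. A line holds 1 position and strand, extended to 350 bp, with the raw count of reads deposited by the authors. The count was not scaled to depth or input, as far as the values show. Treatment of reads with several matches is not given in the sources used here, which matters in a family of related genes. Between 98.0% and 99.8% of positions in the locus held 1 read, and none over 3.

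Each position counted once, placed by its midpoint, with Python 3.11.15, numpy 2.4.6, scipy 1.17.1, pandas 2.3.3 and matplotlib 3.10.9. Genome-wide means chromosomes 1 to 19 and X. Windows needed 50 and tiles 5 reads in the summed inputs, with at most 5 times the median. Tile calls used a pseudocount of 0.5 reads. Intervals were exact (Clopper-Pearson for levels and shares, conditional for odds ratios), or log-normal for ratios of ratios and for counts above 2000. Levels over genome-wide treat the genome-wide level as fixed. With 1 library per group no p-values were computed. On 476875 simulated tiles, the calls found 96.5% of 200 tiles raised 4-fold in ESC and 72.5% of 200 raised 4-fold in NPC, and 4.16% and 0.885% of unchanged tiles.

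Named tiles had at least 5 reads in each input. They were the 5 highest in ESC and in NPC and, with 20 reads in a 5hmC library, the 5 highest and lowest ratios. The locus, blocks and rules were chosen with earlier results of these data known. Where ratios tied at 0, all such tiles were counted and those with the lowest upper bounds named, a choice made after seeing the data. The stretches of locus length, each flank alone, the split by ESC level, the edges and the strand counts were added after seeing the data. Values per gene had been planned but were not made, since no mm9 annotation was used here. RefSeq on GRCm38.p6 gave gene names and order only, and the locus' sequences are not reported here.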

Additional observations from a re-analysis of the deposited data

Results flagged for a closer look

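The whole locus and its middle block were above the genome average in ESC yet below it in NPC, each with intervals that excluded 1. For the locus, ESC were at 1.21 (1.14 to 1.29), whereas NPC were at 0.768 (0.691 to 0.851). For the middle block, ESC were at 1.19 (1.06 to 1.34), whereas NPC were at 0.530 (0.420 to 0.662). From minus-strand reads alone ESC in the middle block were at 0.962. With 1 library per group the difference was not tested.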

How the results depend on the processing

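Of 162 recomputed levels and ratios, 142 stayed within the interval of the reported value. Some of these could not move, such as the ratios when levels were scaled to chromosome 18. No paired analysis was possible because each group holds 1 library. Plus reads only gave ESC and NPC levels of 1.31 and 0.861 in the locus, and minus reads only 1.12 and 0.679. In the first block ESC were at 0.756 with plus and 1.08 with minus reads, and in the last at 1.69 and 1.24. In the middle block they were at 1.42 with plus reads and turned to the other side of the genome-wide level, 0.962 (0.810 to 1.14), with minus reads, while NPC were at 0.664 and 0.415. Over chromosome 18, ESC were at 1.34 in the locus and 1.61 in the last block. With the locus shortened by 20 kb on each side, NPC in the last block fell to 0.748. The comparison with flanks depended on the flank: both summed gave 0.821 in ESC and 0.647 in NPC, flanks of 250 kb 0.966 in ESC (0.883 to 1.06), the proximal flank alone 1.18 and 0.905, and the distal one 0.672 and 0.536. Each flank alone was added after seeing the data. Windows shifted by 25 kb gave 2 enriched in ESC, 3 depleted in NPC and 3 with a ratio 1.5-fold above genome-wide. The reported middle block ratio of 0.0838 kept within its interval in every alternative run, but some runs could not change it. Scaling to chromosome 18 cancels in the ratio, and extending or shortening the locus leaves the middle block's bounds unchanged. The tiles with most reads, left out in a further run, both lay in the last block.

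There are fewer tiles of 10 kb, and 15 of 90 were enriched in ESC, against 9.04% in the genome. They gave 3 in both, 16 in either, 16 at least 2-fold lower in NPC, 11 below and 0 above the genome-wide ratio. A pseudocount of 5 reads gave 21 of 173 in ESC, against 6.67% in the genome, 0 in both and 9 below that ratio. Without a minimum of 5hmC reads, 12 were enriched in NPC (6.94%, against 14% in the genome), 3 in both, 2 were higher in NPC and 7 above the ratio. A minimum of 20 left 1 of 173 in NPC, against 1.04% in the genome, and 0 in both. A shift of 2.5 kb gave 3 in both. Counts given here without a share of the genome describe the locus alone. The cause of these changes was not tested. The median tile held 2 NPC 5hmC reads, which leaves single NPC tiles imprecise.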
